A study of Sus scrofa with 24 samples.

Results

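The genes described here are SERT (SLC6A4), which encodes the serotonin transporter, and 5-HT4R (HTR4), which encodes the serotonin receptor 4. They were chosen by name as the serotonin genes of the assay, and they are 2 of its 26 target genes. Serotonin in the gut is made mainly by enterochromaffin cells of the mucosa, which release it in response to the contents of the lumen. SERT takes serotonin up into epithelial cells and so ends its signal. 5-HT4R is a receptor coupled to the stimulatory G protein, and its activation raises cyclic AMP and promotes motility and secretion.

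Mucosa of the jejunum and of the ileum was taken from 6 healthy pigs and from 6 pigs with postnatal growth retardation (PGR), all weaned Duroc × Landrace × Large Yorkshire crossbreds aged 42 days. PGR was defined by low body weight, so the groups differ in body size as well as in growth. The pigs were matched by litter per the study's methods, but the labels do not say which pigs share one. The 24 samples form 4 groups of 6, and they were grouped by title because the tissue field of 12 labels names the other tissue. Markers of enterocytes could not be used to check the tissue, since 0 of the 3 on the list (VIL1, FABP2 and EPCAM) are in the assay. Of 7 genes of the serotonin pathway, the assay holds SERT and 5-HT4R, and the enzymes that make or degrade serotonin are outside it. The assay holds 3 of 4 enteroendocrine markers (CCK, SST and GHRL) and 2 of 3 immune markers (TLR4 and MYD88).

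Expression was measured by quantitative RT-PCR. The Ct is the cycle at which the product crosses a detection threshold, so a lower Ct means more template, and 1 cycle is 1 unit on a log2 scale. A level is the amount relative to β-actin, the reference gene, and is given here per 100000 of β-actin. The Ct of both genes was present in all 24 samples, while 5 of their 48 levels had been left blank. In mucosa, fewer cells of a type and less RNA per cell cannot be told apart.

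**Figure D1:**
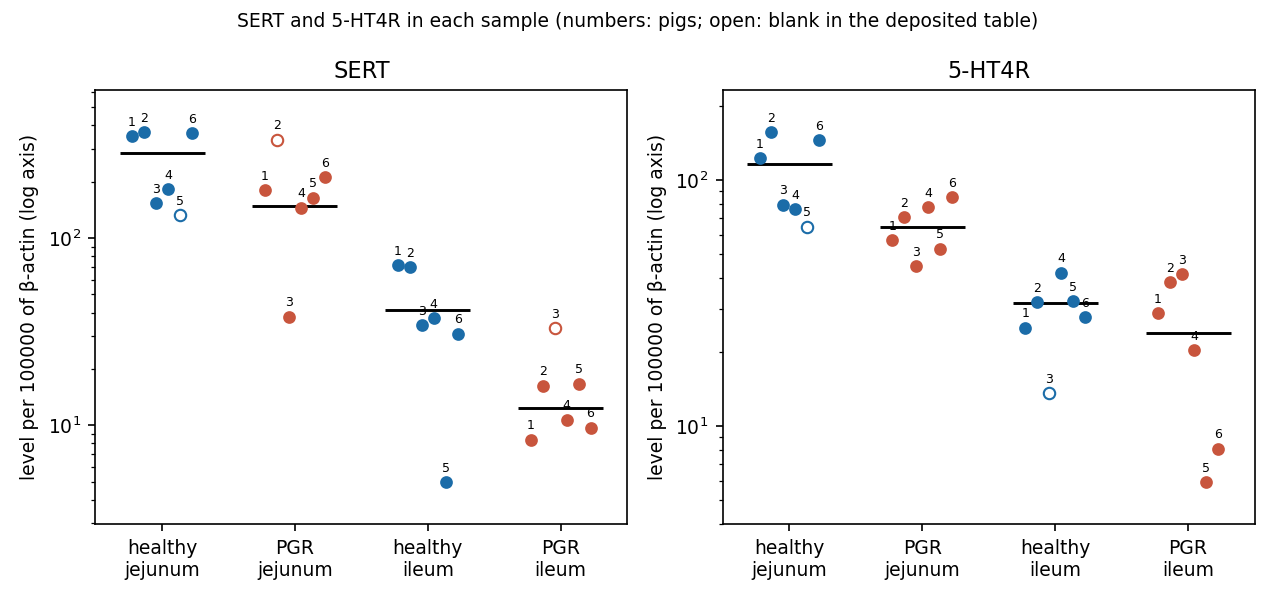
Level of SERT (left) and 5-HT4R (right) per 100000 of β-actin on a log axis, 1 point per pig with its number. Bars are means of the deposited levels, and open points are blank levels recomputed from Ct. For both genes the means descend from healthy jejunum through PGR jejunum and healthy ileum to PGR ileum.

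SERT was higher in the jejunal than in the ileal mucosa. In the jejunum of healthy pigs 1, 2, 3, 4 and 6 its level was 350.4, 368, 153, 182 and 363, with a mean of 283 ± 106 (SD, n = 5). In the jejunum of PGR pigs 1, 3, 4, 5 and 6 it was 180.1, 38.0, 145, 164 and 212, with a mean of 148 ± 66.1 (SD, n = 5). Healthy pigs 1, 2 and 6 lay above all PGR pigs, PGR pig 3 was far the lowest, and the groups overlapped. In the ileum of healthy pigs 1 to 6 the level was 71.3, 69.9, 34.1, 37.3, 4.97 and 30.9, with a mean of 41.4 ± 25.3 (SD, n = 6). In the ileum of PGR pigs 1, 2, 4, 5 and 6 it was 8.40, 16.3, 10.7, 16.7 and 9.73, with a mean of 12.4 ± 3.85 (SD, n = 5). Among these kept levels 5 of 6 healthy pigs lay above all PGR pigs, while healthy pig 5 lay below them all. If single wells were recorded to whole hundredths of a cycle, which the sources used here do not state, the Ct of that pig, 27.545, is the only one of the 48 that could be a mean of 2 wells but not of 3.

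The level of 5-HT4R in the jejunum of healthy pigs 1, 2, 3, 4 and 6 was 123, 157, 79.5, 76.1 and 145, with a mean of 116 ± 37.0 (SD, n = 5). In the jejunum of PGR pigs 1 to 6 it was 56.9, 70.7, 44.7, 77.8, 52.6 and 85.0, with a mean of 64.6 ± 15.7 (SD, n = 6). Among kept levels PGR pigs 1, 2, 3 and 5 had less than any healthy pig, and PGR pigs 4 and 6 reached into the healthy range. In the ileum of healthy pigs 1, 2, 4, 5 and 6 the level was 25.2, 31.9, 42.0, 32.1 and 27.7, with a mean of 31.8 ± 6.43 (SD, n = 5). In the ileum of PGR pigs 1 to 6 it was 28.8, 38.4, 41.3, 20.3, 5.92 and 8.09, with a mean of 23.8 ± 15.0 (SD, n = 6). PGR pigs 1, 2 and 3 lay within the range of kept healthy levels and PGR pigs 4, 5 and 6 below it, 5 and 6 far below.

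Both genes had the same order of means, with healthy jejunum highest, then PGR jejunum, healthy ileum and PGR ileum. Neighbours in this order overlapped, except that the lowest 5-HT4R level of PGR jejunum, 44.7, was above the highest of healthy ileum, 42.0.

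The fall from jejunum to ileum was then taken within each pig, as the log2 level in the jejunum minus that in the ileum. For SERT it was 2.30, 2.40, 2.16, 2.28 and 3.55 in healthy pigs 1, 2, 3, 4 and 6, with a mean of 2.54 ± 0.573 (SD, n = 5; exact sign-flip permutation p = 0.0625, the smallest that 5 pigs allow). In PGR pigs 1, 4, 5 and 6 it was 4.42, 3.76, 3.30 and 4.44, with a mean of 3.98 ± 0.556 (SD, n = 4; exact sign-flip permutation p = 0.125, the smallest that 4 pigs allow). All 9 pigs with both levels had more SERT in the jejunum, 5 of 5 healthy and 4 of 4 PGR. Across the 25 genes with separate readings in both tissues, 64.0% were higher in the jejunum of every healthy pig with a value, and 48.0% in that of every PGR pig. With both growth groups together, a grouping chosen after the data were seen, the SERT difference was 3.18 ± 0.926 (SD, n = 9), a 9.06-fold higher jejunal level (exact sign-flip permutation p = 0.00391, adjusted p = 0.00888 over 25 genes). By that rule 64.0% of the 25 genes were higher in the jejunum relative to β-actin. The size of the SERT difference ranked 3 of 25, after GHRL and HO-1, against a median over the genes of 0.74. It ranked 6 of 25 in healthy pigs, after GHRL, HO-1, CCK, GHR and Nrf2, and 2 of 25 in PGR pigs, after GHRL.

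For 5-HT4R the jejunum minus ileum difference in log2 level was 2.29, 2.30, 0.86 and 2.39 in healthy pigs 1, 2, 4 and 6, with a mean of 1.96 ± 0.735 (SD, n = 4; exact sign-flip permutation p = 0.125, the smallest that 4 pigs allow). In PGR pigs 1 to 6 it was 0.98, 0.88, 0.11, 1.94, 3.15 and 3.39, with a mean of 1.74 ± 1.32 (SD, n = 6; exact sign-flip permutation p = 0.03125, adjusted p = 0.164). PGR pigs 5 and 6 had the largest differences and PGR pig 3 almost none. With both growth groups together the difference was 1.83 ± 1.08 (SD, n = 10), positive in 10 of 10 pigs and 3.55-fold in size (sign-flip permutation p = 0.00195, adjusted p = 0.00888). It ranked 8 of 25.

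Without β-actin the tissue difference of SERT was also present, while that of 5-HT4R in PGR pigs depended on the scale. Ct alone does not correct for the amount of cDNA in a sample. The average Ct of 25 target genes was itself lower in the jejunum than in the ileum. It was 22.95 against 23.84 in healthy pigs and 22.99 against 23.76 in PGR pigs. On Ct alone, SERT was higher in the jejunum of 12 of 12 pigs, by 3.08 ± 1.24 cycles (SD, n = 12). 5-HT4R was also higher in 12 of 12, by 1.74 ± 1.09 cycles (SD, n = 12). The sign-flip permutation p was 0.000488 for each gene, the smallest that 12 pigs allow. On Ct alone 6 of the 25 genes were higher in the jejunum of every pig, and 48.0% passed as higher after adjustment. With the average Ct of 25 target genes of the sample as the reference, SERT was higher in the jejunum of 11 of 12 pigs, by 2.25. On that scale 5-HT4R was higher in 9 of 12 pigs, by 0.91, and in PGR pigs in 3 of 6 (0.78, exact sign-flip permutation p = 0.281). By this reference 2 of the 25 genes were higher in the jejunum of every pig, and 28.0% passed as higher after adjustment.

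**Figure D2:**
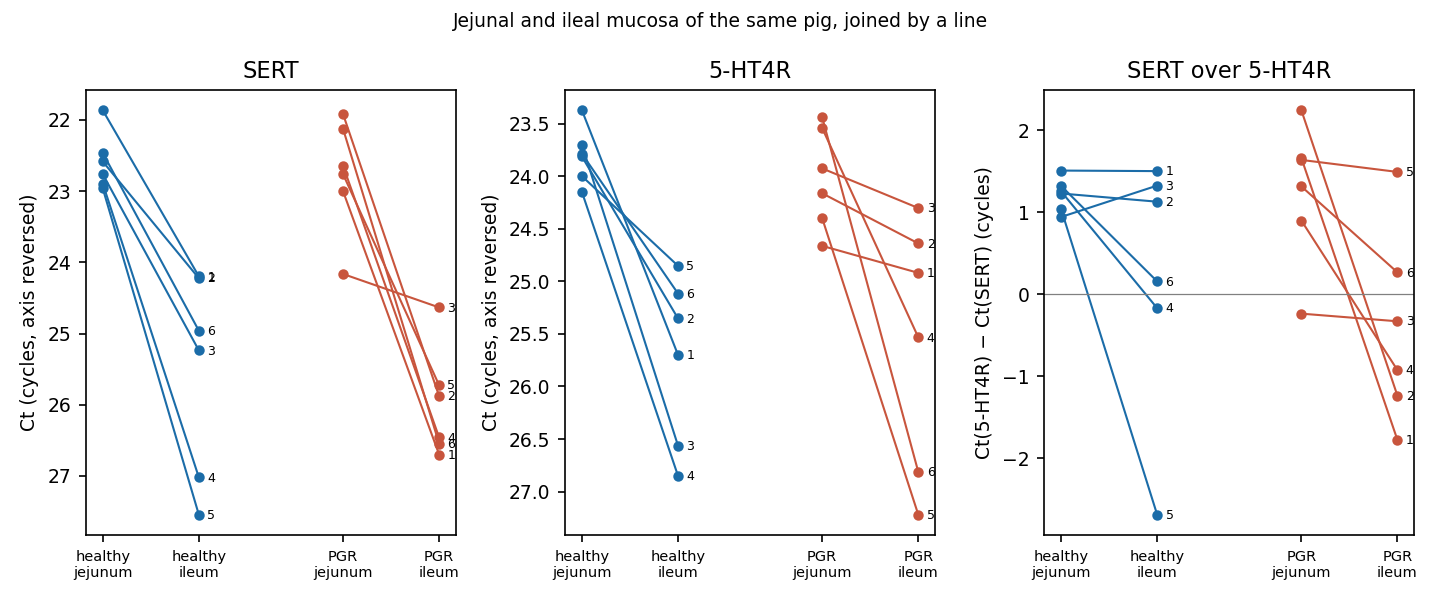
Ct of SERT (left) and 5-HT4R (middle) in cycles, with the axis reversed so that more RNA is higher, and the log2 ratio of SERT over 5-HT4R (right), each line joining the jejunum and ileum of 1 pig. Every line of both genes descends toward the ileum, and the ratio descends in 11 of 12 pigs.

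In PGR pigs against healthy pigs, the ileal level of SERT was 0.298 of the healthy mean (exact permutation p = 0.0346, adjusted p = 0.0858 over 52 comparisons). That call was lost on log2 levels (0.377, exact permutation p = 0.0671), by ranks (exact permutation p = 0.0823) and without PGR pig 1, 4 or 6 (exact permutation p = 0.0762, 0.0619 and 0.0667). In the jejunum SERT was at 0.522 and the difference did not pass the test (exact permutation p = 0.0714, adjusted p = 0.120). For 5-HT4R it was the jejunal level that passed before adjustment, at 0.557 (exact permutation p = 0.0130, adjusted p = 0.0728). Its ileal level was 0.749 of the healthy mean and did not pass (exact permutation p = 0.312, adjusted p = 0.377). Thus 1 of the 2 genes was called lower in each tissue, where 50.0% of the 26 genes were called lower in the jejunum and 50.0% in the ileum. The share is the same. The 26 ileal genes include TLR4, whose Ct repeats the jejunal one and which was not called (exact permutation p = 0.675). These shares hold for deposited levels. With blanks filled 5 jejunal and 8 ileal genes were lower and 0 higher, and on Ct alone in all pigs 4 were lower and 3 higher in the jejunum and 0 lower and 5 higher in the ileum. Against the average Ct of the target genes in all pigs 4 were lower and 5 higher in the jejunum, and 3 lower and 3 higher in the ileum. After adjustment of the exact test 0 genes passed in either tissue, while before it the count was 13 in the jejunum and 14 in the ileum. By limma on log2 levels 12 genes passed in each tissue before adjustment, and after it GHR and IGF-1 in the jejunum and IGF-1 in the ileum, with neither SERT nor 5-HT4R among them. A call in one tissue and not in the other does not show that the tissues differ.

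SERT and 5-HT4R shared their β-actin readings in both tissues, and these readings also differed between the groups. The ileal Ct of β-actin averaged 13.90 ± 0.880 (SD, n = 6) in healthy and 13.20 ± 0.0834 (SD, n = 6) in PGR pigs (exact permutation p = 0.00866). Healthy pig 4 stood apart at 15.63, with 13.25 to 13.74 in the other healthy pigs, and the same sample read 13.54 in the β-actin set of Nrf2. Without it the ileal difference of -0.70 cycles was -0.35 (exact permutation p = 0.00866), a setting chosen after the data were seen. With the reading of the Nrf2 set, the ileal levels of healthy pig 4 would be 8.77 in place of 37.3 for SERT and 9.87 in place of 42.0 for 5-HT4R. The readings of the Nrf2 set also differed between the groups in the ileum, by -0.53 cycles (exact permutation p = 0.00216). Their jejunal difference of -0.48 did not pass (exact permutation p = 0.0866). With the Nrf2 set as reference in every sample, also chosen after the data were seen, the mean jejunum minus ileum difference of healthy pigs was 3.10 in place of 2.54 for SERT and 2.66 in place of 1.96 for 5-HT4R. In PGR pigs it was 4.37 in place of 3.98 and 2.05 in place of 1.74. Ileal SERT in PGR pigs was then at 0.307 of the healthy mean and was not called (exact permutation p = 0.0671). In the jejunum the β-actin Ct was 13.86 ± 0.468 (SD, n = 6) and 13.39 ± 0.388 (SD, n = 6), a difference that did not pass (exact permutation p = 0.0952). The part of β-actin in the lower levels was not tested.

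Without a reference gene, over the same pigs, ileal SERT in PGR pigs was at 0.602 of the healthy level (exact permutation p = 0.290) and jejunal SERT at 0.745 (exact permutation p = 0.325). Jejunal 5-HT4R was at 0.837 (exact permutation p = 0.312) and ileal 5-HT4R at 1.00 (exact permutation p = 0.996). With the pigs of blank levels added as well, the values for SERT were 0.727 in the ileum and 0.882 in the jejunum, and those for 5-HT4R 1.12 and 0.860 (smallest exact permutation p = 0.346). None of these differences passed the test. Against the average Ct of the target genes in all pigs, the values were 0.686 and 0.909 for ileal and jejunal SERT, and 1.06 and 0.886 for ileal and jejunal 5-HT4R (smallest exact permutation p = 0.409).

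The blank levels also lay on 1 side. Recomputed from Ct and the shared β-actin readings, jejunal SERT was 133 in healthy pig 5, below all kept healthy levels, and 335 in PGR pig 2, above all kept PGR levels. Ileal SERT of PGR pig 3 was 32.9, above all kept PGR levels and near that of healthy pig 3. Jejunal 5-HT4R of healthy pig 5 was 64.6 and ileal 5-HT4R of healthy pig 3 was 13.6, both below the kept healthy levels. With the recomputed levels counted, PGR pig 3 had more ileal SERT than healthy pig 6, PGR pig 2 had more jejunal 5-HT4R than healthy pig 5, and PGR pig 4 fell within the healthy range of ileal 5-HT4R. All 5 blank levels of the 2 genes thus fell outside the kept levels of their group, on the side of the other group. Over all genes the same was true of 54 of the 74 blank levels that could be recomputed. With them filled in, SERT in PGR pigs was at 0.694 of the healthy mean in the jejunum (exact permutation p = 0.247) and 0.381 in the ileum (exact permutation p = 0.0476). Filled 5-HT4R was at 0.601 in the jejunum (exact permutation p = 0.0368) and 0.828 in the ileum (exact permutation p = 0.511). The rule behind the blanks is not given in the sources used here.

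The transporter was next set against the receptor within each sample, as Ct of 5-HT4R minus Ct of SERT, the log2 ratio of SERT over 5-HT4R. The ratio uses every pig and no β-actin, and its absolute size depends on the efficiency of each assay, so only differences in it are read. These differences still assume that both assays amplify with equal efficiency, which was not tested. In the jejunum of healthy pigs 1 to 6 it was 1.51, 1.23, 0.94, 1.26, 1.04 and 1.32, with a mean of 1.22 ± 0.203 (SD, n = 6). In the jejunum of PGR pigs it was 1.66, 2.25, -0.24, 0.90, 1.64 and 1.32, with a mean of 1.26 ± 0.855 (SD, n = 6). Healthy pigs lay close together, and PGR pigs lay on both sides of them. The difference of 0.04 (SE 0.359) was within the spread (exact permutation p = 0.922, adjusted p = 0.976 over all pair ratios of both tissues). Of all jejunal gene pairs, 21.5% differed before adjustment.

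In the ileum the ratio was 1.50, 1.13, 1.33, -0.17, -2.69 and 0.16 in healthy pigs 1 to 6, with a mean of 0.21 ± 1.57 (SD, n = 6). In PGR pigs 1 to 6 it was -1.78, -1.24, -0.33, -0.93, 1.49 and 0.27, with a mean of -0.42 ± 1.18 (SD, n = 6). Healthy pigs 1, 2 and 3 and PGR pig 5 were high, healthy pig 5 was lowest, and the groups overlapped widely. The difference of -0.63 (SE 0.801) did not pass the test (exact permutation p = 0.452, adjusted p = 0.756), where 20.3% of ileal pairs did before adjustment. Its size rested on single pigs, at -1.21 without healthy pig 5 (exact permutation p = 0.0866) and -0.36 without PGR pig 1 (exact permutation p = 0.708).

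Between tissues the ratio did move. The jejunum minus ileum difference in the log2 ratio was 0.01, 0.10, -0.38, 1.43, 3.73 and 1.17 in healthy pigs 1 to 6, and 3.44, 3.49, 0.09, 1.83, 0.15 and 1.05 in PGR pigs 1 to 6. Healthy pigs 1 and 2 and PGR pigs 3 and 5 were close to 0, and healthy pig 5, the one with the SERT Ct of 27.545, was highest. The ratio was higher in the jejunum in 5 of 6 healthy pigs, by 1.01 ± 1.51 (SD, n = 6; exact sign-flip permutation p = 0.156, adjusted p = 0.206), and by 0.46 without healthy pig 5 (exact sign-flip permutation p = 0.3125). In PGR pigs it was higher in 6 of 6, by 1.67 ± 1.53 (SD, n = 6; exact sign-flip permutation p = 0.03125, adjusted p = 0.0617). Among all pairs, 67.0% differed between tissues before adjustment in healthy pigs and 34.3% in PGR pigs. With both growth groups together the difference was 1.34 ± 1.49 (SD, n = 12) in 11 of 12 pigs (sign-flip permutation p = 0.00830, adjusted p = 0.0133), where 73.0% of pairs passed. In this grouping, chosen after the data were seen, SERT declined more on average than 5-HT4R from jejunum to ileum. Neither growth group alone passed after adjustment, and such unequal differences were the rule among gene pairs.

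Whether the jejunum minus ileum difference itself depended on growth was tested by permuting the growth groups. For the SERT level it was larger in PGR pigs by 1.44 (exact permutation p = 0.0238, adjusted p = 0.298), so 1 of the 2 serotonin genes was called. Of all 25 genes 8.0% were called, SERT and Akt. With blanks filled this was 0.51 (exact permutation p = 0.563), on Ct alone 0.28 (exact permutation p = 0.716) and with the Nrf2 set 1.27 (exact permutation p = 0.0556). The call was also lost without healthy pig 1, 2, 3 or 4. For the 5-HT4R level the difference was -0.22 (exact permutation p = 0.790, adjusted p = 0.973). For the ratio it was 0.67 (exact permutation p = 0.444, adjusted p = 0.751), where 8.33% of pairs passed before adjustment.

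Set against the other genes by Ct, SERT had a lower mean in PGR pigs relative to 19 of 25 genes in the jejunum and 20 of 24 in the ileum. By the exact permutation test 0 of these lower ratios passed before adjustment, and jejunal SERT was called higher relative to GHR, the growth hormone receptor gene, and Nrf2. Of all gene pairs, 21.5% in the jejunum and 20.3% in the ileum were called in either direction before adjustment. 5-HT4R had a lower mean relative to 20 of 25 genes in the jejunum, with 3 called (SS, Akt and P70S6K) and 1 called higher (GHR). In the ileum it was lower relative to 13 of 24, with 0 called lower and GHR called higher. No such ratio passed adjustment, the smallest adjusted p by the exact permutation test being 0.0752.

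SERT and 5-HT4R belong to a list of 11 hormone-related genes chosen by the study. In the jejunum 5 of the 11 were called lower and 0 higher before adjustment, beside 13 and 0 of all 26 (50.0% lower), with a median relative level of 0.561 against 0.643 over all 26 genes. In the ileum 7 were called lower and 1 higher, beside 13 and 1 of all 26 (50.0% lower), with a median of 0.668 against 0.747. On Ct alone in all pigs the list had 3 lower and 1 higher in the jejunum (median 1.02) and 0 lower and 1 higher in the ileum (median 1.04), beside 4 lower and 3 higher, and 0 lower and 5 higher, of all 26. With blanks filled it had 4 lower in the jejunum and 5 in the ileum, beside 5 and 8 of all 26. Against the average Ct of the target genes in all pigs it had 3 lower and 1 higher in the jejunum (median 1.05) and 2 lower and 1 higher in the ileum (median 0.985), beside 4 and 5, and 3 and 3, of all 26. The list also holds genes of gut peptides made by enteroendocrine cells. By deposited levels GHRL, the gene of ghrelin, was at 0.380 in the jejunum (exact permutation p = 0.0216) and 0.506 in the ileum (exact permutation p = 0.257). CCK, the gene of cholecystokinin, was at 0.561 (exact permutation p = 0.0476) and 0.828 (exact permutation p = 0.0381). SS, the gene of somatostatin, was at 1.12 (exact permutation p = 0.619) and 1.63 (exact permutation p = 0.0476). On Ct alone in all pigs jejunal GHRL was at 0.342 (exact permutation p = 0.0238), CCK at 1.03 and SS at 1.35 (exact permutation p = 0.0411). Ileal GHRL was then at 1.28, CCK at 1.19 and SS at 2.67, all above the healthy level, and only SS passed (exact permutation p = 0.0260). With blanks filled ileal GHRL was at 1.18, jejunal SS at 0.958 and ileal SS at 1.34, which did not pass (exact permutation p = 0.206). Filled CCK was at 0.730 in the jejunum (exact permutation p = 0.251) and 0.663 in the ileum (exact permutation p = 0.0541). The direction of ileal GHRL, of CCK and of jejunal SS, and the calls of CCK and SS in both tissues, thus depended on the scale. The part of these markers in the SERT and 5-HT4R levels was not tested. Relative to β-actin all 3 had higher jejunal than ileal levels, by 6.02 for GHRL in 7 of 7 pigs, 3.00 for CCK in 8 of 8 and 0.97 for SS in 8 of 9, on the log2 scale. Against the average Ct of the target genes GHRL and CCK were higher in 12 of 12 pigs, by 4.76 and 2.03, and SS in 4 of 12, by 0.34 (sign-flip permutation p = 0.441).

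The genes whose variation between pigs was most like that of each gene were found from levels centred on the sample's mean Ct, as deviations from the mean of the pig's own group, over 24 samples. For SERT they were INSR, the insulin receptor gene (r = 0.736), GLP-1R (r = 0.420) and P70S6K (r = 0.301). Only INSR was similarly high within the jejunum (r = 0.863) and the ileum (r = 0.723), where GLP-1R had 0.511 and 0.371 and P70S6K 0.738 and 0.0879. For 5-HT4R they were GHR (r = 0.581), GHRL (r = 0.228) and SERT (r = 0.177). Within the jejunum and the ileum the correlation with GHR was 0.463 and 0.664, while that with GHRL turned sign, at -0.127 and 0.349. The correlation of SERT with 5-HT4R was 0.606 in the jejunum and 0.0454 in the ileum. The samples of 1 pig and the centring are shared between these values, so they are given as a description.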

How the data were processed

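Quantitative RT-PCR was run on jejunal and ileal mucosa of 12 pigs. Wells were run in triplicate per the study's methods, and the authors deposited 1 Ct per gene and sample, in cycles, a reversed log2 scale, and the ratio of each gene to β-actin (2^-ΔCt), in which some values are blank. A fold table the authors deposited holds their own comparison and was not used. A Ct carries no counting depth.

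The members and lists were chosen with earlier results of these data known. Named genes were SERT, 5-HT4R, the 3 genes most correlated with each, and GHRL, SS and CCK. Other genes named beside a count were chosen after their values were seen. The β-actin Ct was recovered as Ct plus the log2 level, and readings within 0.01 cycles formed a set. Growth groups were compared by two-sided exact permutation tests, and tissues by two-sided exact sign-flip tests within pigs. Benjamini-Hochberg adjustment covered 52 level comparisons, all pair ratios of both tissues, 50 tissue contrasts of genes and 600 of pairs, and 25 genes or 300 pairs for growth by tissue. Both growth groups together were adjusted over 25 genes or 300 pairs. Ileal TLR4, whose Ct repeats the jejunal one, was left out of pairs and contrasts but kept among the 52 level comparisons. Jejunum and ileum with the same number are of the same pig by title.

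Alternatives were the log2 scale, ranks, limma, a replicate block, no reference gene, the mean Ct of 25 target genes, filled blanks, and leaving out each pig. Both reference settings with the Ct of all pigs, the β-actin readings of the Nrf2 set, the β-actin Ct without healthy pig 4, and both growth groups together were added after seeing the data. Procedures were tested on simulated data. Names were looked up in RefSeq for Sscrofa11.1; no build is given for the assays, so no coordinates are printed. Tests ran in Python 3.11.15 with numpy 2.4.6, tables in pandas 2.3.3, plots in matplotlib 3.10.9, the unpaired alternative in scipy 1.17.1, and limma 3.58.1 under R 4.3.3.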

Additional observations from a re-analysis of the deposited data

Results flagged for a closer look

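The jejunum minus ileum difference in log2 SERT level was larger in PGR than in healthy pigs by 1.443, and it stood out because the test of the difference between growth groups passed before adjustment (exact permutation p = 0.0238, adjusted p = 0.298 over 25 genes). It rests on 5 healthy and 4 PGR pigs, since 3 SERT levels are blank. With the blanks filled it was 0.51 (exact permutation p = 0.563). The pigs absent from the kept values were healthy pig 5, with a filled difference of 4.74, PGR pig 2, with 4.37, and PGR pig 3, with 0.21. In 20 groups of Ct, level and ratio values of the 2 genes, 0 had a pig that stood apart by Dixon's criterion.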

How the results depend on the processing

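Of 112 settings other than leaving out a pig, 73 kept direction and side of the threshold, and of 160 that left out 1 pig, 134 did. Some tissue contrasts with 1 pig left out had too few pigs to pass, and some settings repeat the same values. The counts are therefore not a measure of robustness. Settings with all pigs, the Nrf2 set and both growth groups together were chosen after seeing the data. The cause of the changes was not tested.

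The deviations of same-numbered healthy and PGR pigs had correlations from -0.375 to 0.321, with 6 of 12 above 0.1 and 2 of 12 best with their own number. These values cannot exclude that equal numbers share a litter. The labels do not say which pigs share one, so the numbers were not taken as pairs. With them as a block, jejunal 5-HT4R was 0.588 (exact permutation p = 0.125), ileal SERT 0.383 (exact permutation p = 0.1875) and the growth difference of the SERT tissue contrast 1.50 (exact permutation p = 0.25). The smallest p possible there was 0.0625 for each level, with 5 pairs, and 0.25 for the contrast, with 3, so none of the 3 could pass. Without the pig as a block, the tissue contrasts were 3.07 for SERT and 1.83 for 5-HT4R in healthy pigs and 3.43 for SERT in PGR pigs, all past the threshold.

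Jejunal 5-HT4R (0.557) was not called without a reference gene (0.837, all pigs 0.860) or against the target mean (0.873, all pigs 0.886). Ileal SERT (0.298) was not called on the log2 scale (0.377), by ranks (0.298), without a reference gene (0.602, all pigs 0.727), against the target mean (0.619, all pigs 0.686) or with the Nrf2 set (0.307). Jejunal SERT was called by limma (0.484), and ileal SERT was still called by it (0.377). Ileal 5-HT4R turned to 1.00 without a reference gene, 1.12 with all pigs and 1.06 against the target mean with all pigs. The jejunal ratio turned to -0.20 over pigs with both deposited levels and to -0.20 from deposited levels. The tissue contrasts of healthy pigs passed for SERT with blanks filled (2.91), no reference gene and all pigs (2.94) or target mean and all pigs (2.05), and for 5-HT4R likewise (1.90, 1.94 and 1.04). In PGR pigs SERT passed with blanks filled (3.42) or no reference gene and all pigs (3.22), 5-HT4R was lost against the target mean (0.78, all pigs 0.78), and the ratio over the 4 pigs with both levels (1.62) could not pass, at the smallest p they allow, 0.125. The growth difference of the SERT contrast (1.44) was lost without a reference gene (1.11, all pigs 0.28), with blanks filled (0.51), against the target mean with all pigs (0.41) and with the Nrf2 set (1.27).

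Leaving out 1 pig gave 0.465 to 0.619 for jejunal SERT (called without healthy pig 3, 0.468, or 4, 0.479), 0.512 to 0.610 for jejunal 5-HT4R, 0.254 to 0.349 for ileal SERT (lost without PGR pig 1, 0.322, 4, 0.308, or 6, 0.314) and 0.639 to 0.862 for ileal 5-HT4R. The ratio ranged from -0.16 to 0.34 in the jejunum (below 0 without healthy pig 3, -0.02, or PGR pig 1, -0.04, 2, -0.16, or 5, -0.04) and from -1.21 to -0.36 in the ileum. Tissue contrasts in healthy pigs were 2.29 to 2.63 for SERT, 1.81 to 2.32 for 5-HT4R and 0.46 to 1.29 for the ratio. In PGR pigs they were 3.83 to 4.21, 1.41 to 2.07 and 1.31 to 1.99, and the last 2 lost their call whichever pig was left out, at the smallest p that 5 pigs allow. With both growth groups together they were 3.02 to 3.31, 1.65 to 2.02 and 1.12 to 1.50, all past the threshold. Growth differences of the contrasts were 1.29 to 1.70 for SERT (lost without healthy pig 1, 1.38, 2, 1.41, 3, 1.35, or 4, 1.38), -0.58 to 0.11 for 5-HT4R (0.11 without PGR pig 3) and 0.30 to 1.21 for the ratio.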
